A study of Mus musculus with 12 samples.

Results

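Integrins are cell-surface receptors that join the matrix outside a cell to its actin or keratin skeleton. Each is a pair of an alpha and a beta chain, and the pair sets the ligand: chains such as α5, αv, β3, β5 and β6 make receptors for fibronectin and vitronectin, many of which read an RGD motif, while α3, α6 and β4 bind laminins of the basement membrane and α2 binds collagen. The β1 chain serves both classes. In carcinomas, tumour cells and the cells around them both carry integrins, and α6β4 anchors epithelial cells to laminin at hemidesmosomes.

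The genes described are 10 adhesion integrin subunits, found by symbol among the 35453 rows of the deposited mRNA table: Itga5, Itgav, Itgb3, Itgb5 and Itgb6 on the fibronectin and vitronectin side, Itga2, Itga3, Itga6 and Itgb4 on the laminin and collagen side, and the shared Itgb1. The rule names symbols and uses no measured value, but it was set with earlier results of these data known. All 10 had a row, and all 10 passed the filter on low values (a mean log2 value of at least 4), as did 14098 genes in all. The stress group was 4T1 tumours from Balb/c mice held under restraint for 2 hours daily over 28 days; the control group was 4T1 tumours from untreated Balb/c mice. 4T1 is a single mouse mammary carcinoma line that spreads to distant organs, and both groups were taken at 35 days post inoculation. Each group had 3 mRNA libraries, and the labels do not say whether the 3 came from separate animals, so the p-values measure the spread between libraries, which may be partly technical.

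Values are the deposited log2 values, and differences are stress minus control on that scale with limma's standard error, 95% interval and Benjamini-Hochberg adjusted p over 14098 genes. Raised back from the log scale, the values of a library added up to 1.735e+07 to 1.769e+07 in stress. In control the sums were all lower, from 1.695e+07 to 1.728e+07, and the sequencing depth is unknown. Over all genes 3 rose and 2 fell past an adjusted p of 0.05, and none of the 10 integrin genes was among them. The tumours expressed genes of the carcinoma lineage: the epithelial keratin Krt8 averaged 13.81 in stress and 13.83 in control, and the summed level of 10 epithelial markers ran from 15.33 to 15.48 in stress and from 15.34 to 15.49 in control. That sum is mostly Krt8 and Krt18. By difference 4 of the 10 markers were above 0 and 6 below. In 1 of them, Krt7 (11.88 in stress, 12.24 in control), all stress libraries lay below all control libraries, against 12.3% of all genes. In these bulk samples fewer cells of a type and less RNA per cell cannot be told apart.

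Levels were set in order per kilobase of each gene's longest coding transcript in GENCODE M21. The laminin receptor chain Itga3 and the shared Itgb1 led, at 12.39 ± 0.17 and 12.24 ± 0.023 log2 units per kilobase in stress and at 12.34 ± 0.10 and 12.32 ± 0.14 in control (SD, n = 3). They did not differ beyond their spread, since Itga3 was the higher of the pair in 3 of 6 libraries. Itgb4 and Itga6, the chains of the α6β4 laminin receptor, came next at 10.33 ± 0.076 and 9.95 ± 0.047 in stress and at 10.11 ± 0.11 and 9.97 ± 0.045 in control, with Itgb4 above Itga6 in 6 of 6 libraries. The fibronectin and vitronectin chains Itgb5, Itgav and Itga5 stood close together below these. Itgav was above Itga5 in all 3 stress libraries and below it in all 3 control libraries, by little in control replicate 1 (9.37 against 9.42). This order depends on the division by length, since in the deposited values Itgav was above Itga5 in every library. Whether those values were already scaled for length is not known, and the switch was not tested. Itgb5 was above Itgav in 5 of 6 libraries. Itga2 followed, at 7.95 ± 0.16 in stress and 8.23 ± 0.073 in control, then Itgb3 at 7.45 ± 0.17 in stress and 7.48 ± 0.087 in control. Itgb6, the epithelial partner of αv, was far below the rest, at 2.84 ± 0.17 in stress and 2.91 ± 0.064 in control. With the median instead of the longest coding transcript the order was the same, but the isoforms behind the deposited values are not known.

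In the stressed tumours no integrin subunit passed the threshold in either direction by limma (0 of 10, against 0.0213% of all genes called higher and 0.0142% called lower). At an unadjusted p under 0.05 there were 3 of 10, namely Itga2, Itga5 and Itgb4, against 17.4% of all genes. The groups did not overlap for Itgb4 on the higher side and for Itga2 on the lower side, 1 gene of 10 each, against 12.1% and 12.3% of all genes. These shares are near the background. The median difference of the 10 genes was -0.024, against 0.0014 over all genes, with 4 genes above 0 and 6 below (50.6% of all genes were above 0).

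**Figure D1:**
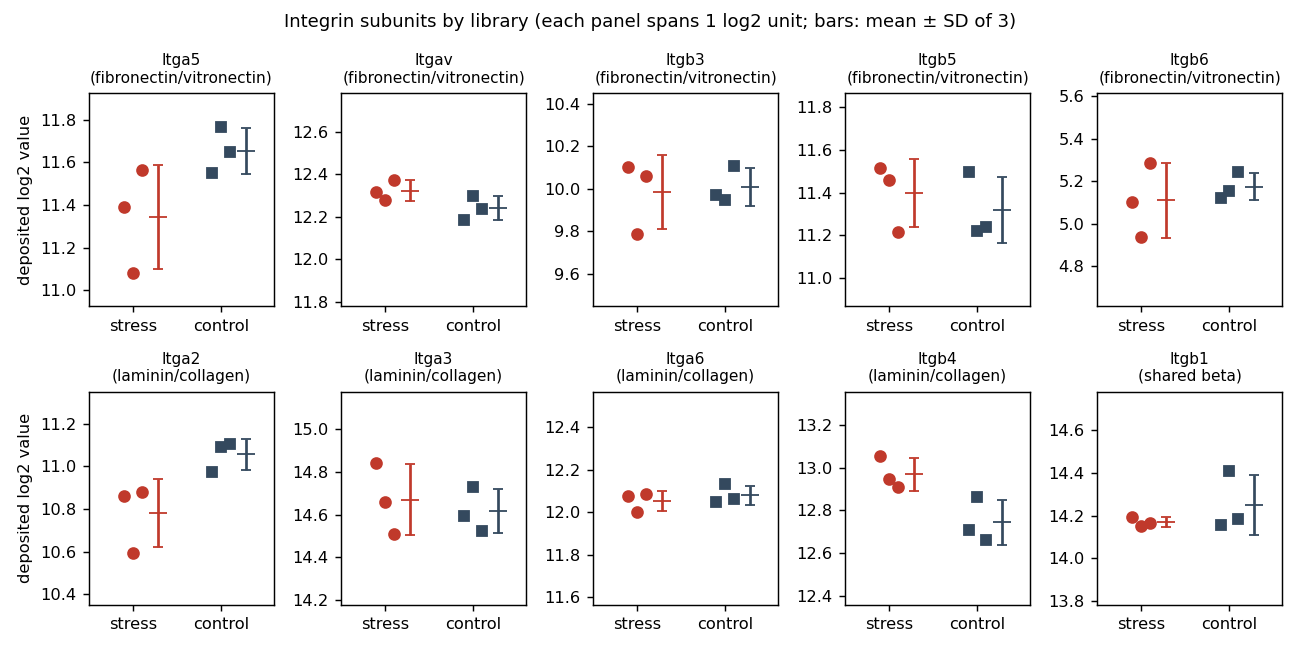
Deposited log2 value (y axis, each panel spanning 1 unit) of the 10 integrin subunits in stress (red circles, left) and control libraries (dark squares, right), with the mean ± SD of 3 libraries beside the points. For Itga2 the 3 stress libraries (10.60 to 10.88) lie below the 3 control libraries (10.97 to 11.11), for Itgb4 they lie above (12.91 to 13.05 against 12.66 to 12.86), and for the other 8 genes the groups overlap.

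Positions of genes are those of GENCODE M21 on GRCm38. Among the fibronectin and vitronectin receptor chains, Itga5 (chromosome 15, 103344286 to 103366763, minus strand), which pairs with β1 to form the classical fibronectin receptor, had log2 values of 11.39, 11.08 and 11.56 in stress replicates 1 to 3, against 11.55, 11.77 and 11.65 in control replicates 1 to 3. Stress replicate 2 was the lowest library, and the groups overlapped at stress replicate 3, which lay just above control replicate 1. The difference of -0.31 ± 0.12 (SE; 1.24-fold lower) was the largest of the 10 in size and did not pass (95% interval -0.60 to -0.021, limma adjusted p = 0.260). Without stress replicate 2 it was -0.18.

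Itgav, the alpha chain shared by several vitronectin and fibronectin receptors, had 12.31, 12.28 and 12.37 in stress and 12.18, 12.30 and 12.24 in control. The 6 libraries lay within 0.19 log2 units, and the difference of 0.082 ± 0.053 (SE; 95% interval -0.042 to 0.21) had a limma adjusted p of 0.454. Itgb3, its partner in the αvβ3 vitronectin receptor of endothelial cells and platelets, had 10.10, 9.79 and 10.06 in stress and 9.97, 9.95 and 10.11 in control. Its groups overlapped fully, with a difference of -0.024 ± 0.094 (SE; 95% interval -0.24 to 0.20, limma adjusted p = 0.923).

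Itgb5, which makes the αvβ5 vitronectin receptor, had 11.52, 11.46 and 11.22 in stress, against 11.50, 11.22 and 11.24 in control. In each group the values were split, with 2 high libraries in stress and 1 in control, and the difference was 0.078 ± 0.10 (SE; 95% interval -0.17 to 0.32, limma adjusted p = 0.732). Itgb6, whose αvβ6 receptor binds fibronectin and activates latent TGF-β in epithelium, had 5.10, 4.94 and 5.29 in stress and 5.12, 5.15 and 5.24 in control. Both the highest and the lowest Itgb6 library were stress libraries, and the difference was -0.064 ± 0.090 (SE; 95% interval -0.27 to 0.15, limma adjusted p = 0.747).

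On the laminin and collagen side, Itga2 (chromosome 13, 114833081 to 114932100, minus strand), the alpha chain of the α2β1 collagen receptor, had 10.86, 10.60 and 10.88 in stress and 10.97, 11.09 and 11.11 in control. All 3 stress libraries lay below all 3 control libraries, with stress replicate 2 lowest. The difference of -0.28 ± 0.086 (SE; 1.21-fold lower, 95% interval -0.48 to -0.076) did not pass (limma adjusted p = 0.187).

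Itga3, the alpha chain of the laminin receptor α3β1, had 14.84, 14.66 and 14.51 in stress and 14.59, 14.73 and 14.52 in control. Its highest and its lowest library were both stress libraries, and the difference was 0.054 ± 0.097 (SE; 95% interval -0.17 to 0.28, limma adjusted p = 0.809). Itga6 had 12.08, 12.00 and 12.09 in stress, against 12.05, 12.13 and 12.06 in control. It was the steadiest of the 10 genes, with all 6 libraries within 0.13 log2 units and a difference of -0.025 ± 0.050 (SE; 95% interval -0.14 to 0.093, limma adjusted p = 0.835).

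Itgb4 (chromosome 11, 115974709 to 116008412, plus strand), the partner of α6 with a long cytoplasmic tail that binds plectin, had 13.05, 12.95 and 12.91 in stress and 12.71, 12.86 and 12.66 in control. All 3 stress libraries lay above all 3 control libraries. The difference of 0.23 ± 0.071 (SE; 1.17-fold higher, 95% interval 0.059 to 0.39) did not pass (limma adjusted p = 0.189), and after quantile normalization, where it was 0.18, the groups overlapped. The chain common to both classes, Itgb1, had 14.20, 14.15 and 14.16 in stress, against 14.16, 14.41 and 14.18 in control. Control replicate 2 stood above the other 5 libraries. The difference of -0.080 ± 0.077 (SE; 95% interval -0.26 to 0.10, limma adjusted p = 0.619) was -2.3e-05 without that library.

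**Figure D2:**
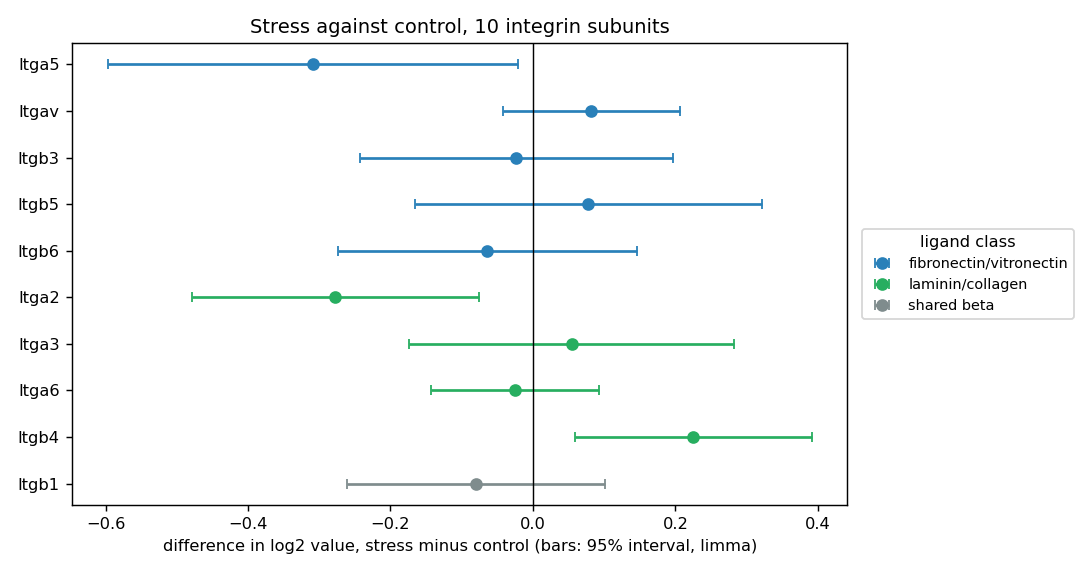
Difference in log2 value, stress minus control (x axis), for each integrin subunit (rows), with limma's 95% interval as bars and colours for the ligand class. The intervals of Itga5, Itga2 and Itgb4 leave out 0 before adjustment over all genes, those of the other 7 include it, and both classes hold genes on either side of 0.

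The question set by the ligand classes is whether fibronectin and vitronectin chains differed from laminin and collagen chains in their response. The mean log2 value of the 5 fibronectin and vitronectin chains was 10.03 ± 0.11 in stress and 10.08 ± 0.016 in control (SD, n = 3), a difference of -0.047. That of the 4 laminin and collagen chains was 12.62 ± 0.082 in stress and 12.62 ± 0.069 in control, a difference of -0.0055. The distance between the class means was -2.62, -2.64 and -2.50 in stress replicates 1 to 3 and -2.52, -2.63 and -2.49 in control replicates 1 to 3. The groups overlapped in that distance, and its shift of -0.042 was smaller than its SD of 0.079 in stress and 0.071 in control. No p is given for these class means, since the genes were chosen with earlier results of these data known. The differences varied more within the classes than between them: they ran from -0.31 (Itga5) to 0.082 (Itgav) in the first class and from -0.28 (Itga2) to 0.23 (Itgb4) in the second.

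Because an alpha and a beta chain act together, the balance of chains that pair was followed within each library, as the alpha minus the beta log2 value. Only its shift between groups is read, since the chains differ in length. For α6β4 the balance was -0.98, -0.95 and -0.82 in stress and -0.66, -0.73 and -0.60 in control, so all 3 stress libraries were shifted towards Itgb4, by -0.25. Neither chain passed on its own. Most of this shift is the difference of Itgb4 itself (0.23, against -0.025 for Itga6), so it is no separate result. For αvβ1 the balance was -1.88, -1.87 and -1.79 in stress and -1.97, -2.11 and -1.95 in control, a shift of 0.16 towards Itgav with no overlap. It was 0.11 without control replicate 2, the library high in Itgb1. In the other 7 of 9 pairs the groups overlapped, with shifts from -0.23 for α5β1 to 0.15 for αvβ6. Of all single genes 24.3% did not overlap, and 2 of 9 pairs is no larger a share. That is an unlike measure, since no share over pairs of genes was computed. The pairs also reuse Itgb1 and Itgav, so they are not separate members. These shifts are descriptions with no test.

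**Figure D3:**
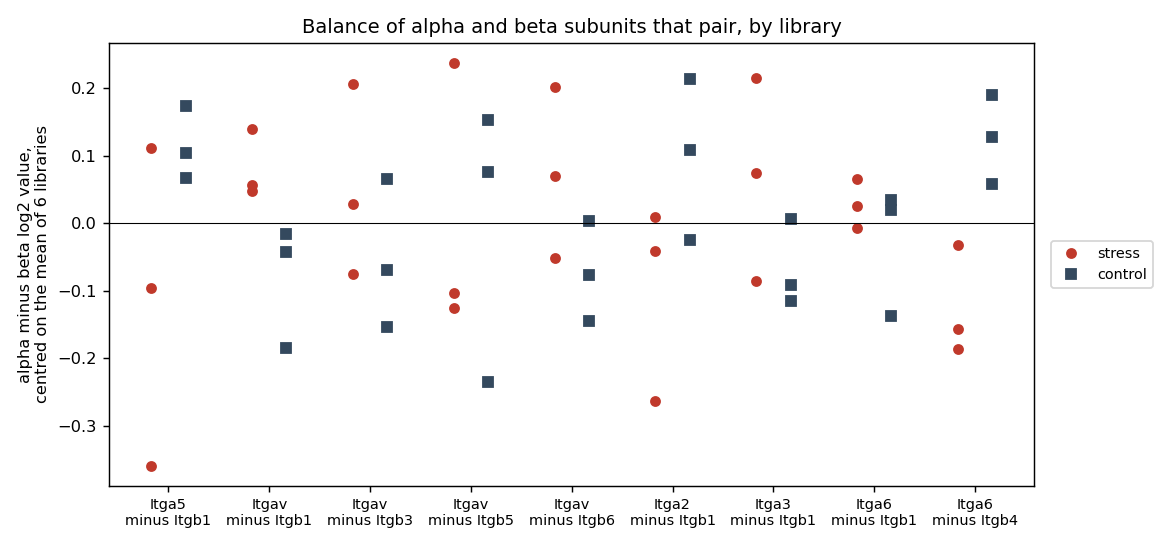
Alpha minus beta log2 value for 9 pairs of integrin chains (x axis), centred on the mean of the 6 libraries (y axis, log2 units), in stress (red circles, left of each pair) and control libraries (dark squares, right). The α6β4 pair lies wholly lower in stress, with a mean shift of -0.25, and the αvβ1 pair wholly higher, with a shift of 0.16. The other 7 pairs overlap. Of all single genes, an unlike measure, 24.3% did not overlap.

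The stretch before the start of transcription is shown for Itga2 and Itga5, the subunits with the largest downward differences, as 250 bases upstream of the RefSeq start on GRCm38.p6, written 5′ to 3′ on the gene's strand. Capitals mark GGGCGG on either strand, the core of the GC box bound by SP1-type factors, and would also mark TTCNNNGAA, the STAT consensus that the study's title makes relevant, and CACCTG on either strand, the E-box bound by SNAIL and ZEB repressors. The windows are chr13:114932101-114932350 on the minus strand for Itga2 and chr15:103366792-103367041 on the minus strand for Itga5.
Itga2: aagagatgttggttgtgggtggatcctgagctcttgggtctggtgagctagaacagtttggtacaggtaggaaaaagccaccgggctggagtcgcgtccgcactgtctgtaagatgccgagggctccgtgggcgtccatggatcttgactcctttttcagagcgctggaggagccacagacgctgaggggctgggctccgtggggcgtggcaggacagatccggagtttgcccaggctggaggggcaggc
Itga5: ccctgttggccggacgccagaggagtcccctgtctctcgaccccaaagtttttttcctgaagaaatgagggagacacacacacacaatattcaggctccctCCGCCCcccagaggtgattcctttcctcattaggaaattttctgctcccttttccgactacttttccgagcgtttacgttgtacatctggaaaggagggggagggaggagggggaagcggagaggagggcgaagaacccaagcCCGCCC
The Itga2 window held none of the 3 motifs and was 60.8% G or C. The Itga5 window held 2 GC boxes and was 55.6% G or C. RefSeq windows were matched for 7 of the 10 genes, 9 windows in all. Of these 9, 0 held the STAT consensus, 3 the E-box and 5 the GC box, against 7.02%, 17.2% and 32.7% of 32851 mouse windows of that length. The motifs did not overlap in the windows printed, and a match or its absence is only a statement about these letters.

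The 4 genes whose pattern over the 6 libraries was most like that of Itga2, the subunit with the smallest p, were the matrix protease gene Adamts4, the forkhead factor gene Foxs1, Rtkn2 and the metalloproteinase gene Mmp23. Likeness was the root mean square difference between centred log2 values, which was 0.038, 0.043, 0.048 and 0.049 log2 units. Their differences were -0.30, -0.23, -0.22 and -0.26, a direction that the choice by likeness to Itga2 fixes, so they are no separate evidence.

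Of the wider adhesion system, 10 lists with 102 tested genes were examined. By limma 0 of these 102 genes passed the threshold, and 22 (21.6%) had an unadjusted p under 0.05, against 17.4% of all genes. The groups did not overlap in 9 genes on the higher side (8.82%) and 14 on the lower side (13.7%), against 12.1% and 12.3% of all genes. Of the genes named below, Lamc1, Dst, Sdc4 and Lgals3 separated on the higher side. Itgae, Tnc, Fbn1, Lama1, Col5a2, Tgfb1i1 and Crk did so on the lower side.

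The other matrix integrin genes numbered 8, and their median difference was -0.043. Itga11, a receptor chain for fibrillar collagen, was at 5.25 in stress and 5.44 in control (-0.19 ± 0.12, SE, limma adjusted p = 0.451), and Itgb8, another partner of αv, at 5.31 in stress and 5.44 in control (-0.13 ± 0.10, adjusted p = 0.539). Leukocyte and platelet integrins had 3 of 7 tested genes above 0. Itgae, the alpha chain through which intraepithelial T cells bind E-cadherin, was at 6.23 in stress and 6.55 in control (-0.32 ± 0.11, adjusted p = 0.212), with no overlap. Itgam, the CD11b chain of myeloid cells, was at 11.65 in stress and 11.44 in control (0.21 ± 0.10, adjusted p = 0.336). Itga2b, the platelet chain that also pairs with β3, was at 6.17 in stress and 6.05 in control (0.12 ± 0.11, adjusted p = 0.588).

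Among genes for integrin ligands none passed either. Fn1, which encodes fibronectin, was at 17.69 ± 0.068 in stress and 17.49 ± 0.17 in control (SD, n = 3; difference 0.20 ± 0.098, SE, limma adjusted p = 0.349). That difference was 0 after quantile normalization. Fn1 ranked no lower than place 2 in every library, and that scaling gives each rank the same value in all libraries. The 0 was therefore nearly fixed in advance and is no check on the difference. Vtn, the vitronectin gene, which liver makes in quantity, was at 3.33 in stress and 3.43 in control and too low to be tested. Of the 13 tested fibronectin and RGD ligand genes 8 were below 0, among them the tenascin gene Tnc (13.92 in stress, 14.56 in control, -0.64 ± 0.13, adjusted p = 0.116) and the fibrillin gene Fbn1 (-0.97 ± 0.29, adjusted p = 0.180).

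All 7 fibrillar collagen genes, whose products α2β1 and α11β1 bind, were below 0, with a median of -0.63 against 0.0014 over all genes. The groups overlapped in all but 1 of them, Col5a2 (12.3% of all genes separated on the lower side). Their summed level ran from 16.25 to 16.69 in stress. Control replicate 1, at 16.55, lay within that range, and control replicates 2 and 3 stood at 17.64 and 17.20. Col5a2 differed by -0.61 ± 0.18 (SE, limma adjusted p = 0.179) and Col1a1 by -0.67 ± 0.23 (adjusted p = 0.217). Without control replicate 2 these differences were -0.42 and -0.45. Among 11 laminin genes 3 were above 0 and 8 below. Lamc1, the γ1 chain of many laminins, was at 13.68 in stress and 13.43 in control (0.25 ± 0.065, adjusted p = 0.147), and Lama1, the α1 chain, differed by -0.33 ± 0.097 (adjusted p = 0.177). Of 4 tested basement membrane collagen genes, Col4a5 stood at 9.46 in stress and 9.08 in control (0.38 ± 0.13, adjusted p = 0.217) and Col4a2 at 13.22 in stress and 13.30 in control (-0.075 ± 0.085, adjusted p = 0.681).

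**Figure D4:**
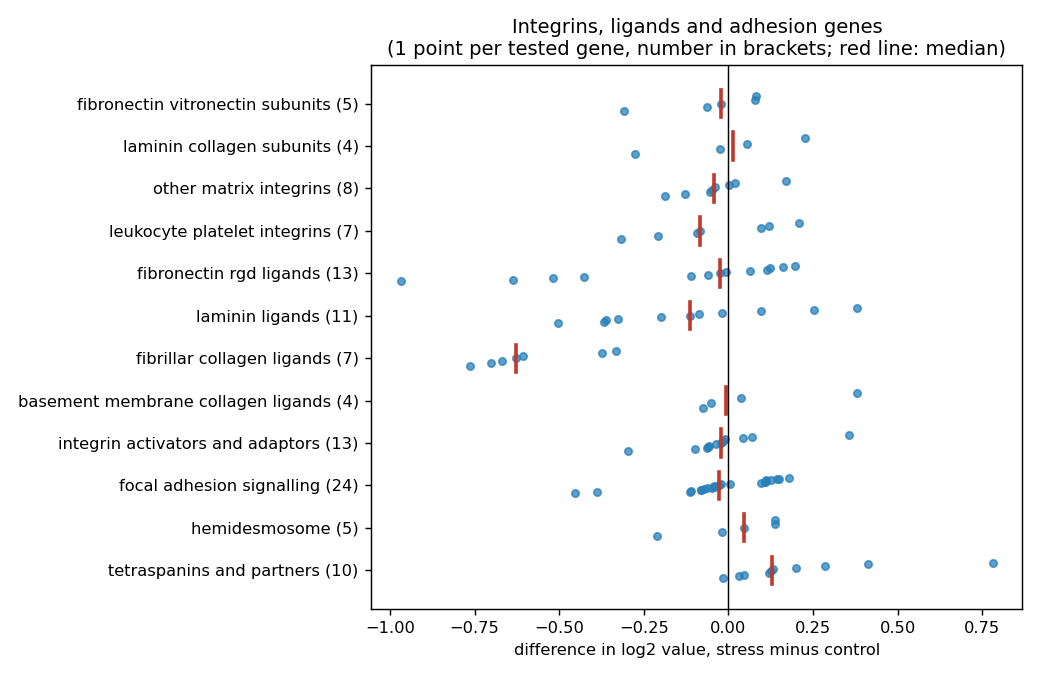
Difference in log2 value, stress minus control (x axis), for each tested gene (blue points) of the integrin, ligand and adhesion lists (rows, number of genes in brackets), with the list median as a red line. The 7 fibrillar collagen genes all lie below 0 with a median of -0.63, while the medians of both integrin classes lie within 0.03 of 0. In all but 1 of the fibrillar collagen genes the groups overlapped.

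Inside the cell, 3 of 13 integrin activator and adaptor genes were above 0. The talin-binding Kank1 stood at 8.29 in stress and 7.94 in control (0.36 ± 0.14, SE, limma adjusted p = 0.254), and the epithelial kindlin gene Fermt1 at 9.54 in stress and 9.84 in control (-0.30 ± 0.12, adjusted p = 0.270). Of 24 focal adhesion genes 10 were above 0 and 14 below. Tgfb1i1, which encodes the paxillin relative HIC-5, differed by -0.45 ± 0.11 (adjusted p = 0.143), and the adaptor gene Crk by -0.11 ± 0.042 (adjusted p = 0.248). In the hemidesmosome list, which holds partners of α6β4, the plakin gene Dst was at 13.84 in stress and 13.71 in control with no overlap (0.14 ± 0.062, adjusted p = 0.309). The tetraspanin gene Cd151 was at 11.34 in stress and 11.20 in control (0.14 ± 0.081, adjusted p = 0.416).

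Tetraspanins and other membrane partners of integrins had 9 of 10 genes above 0 and a median of 0.13. Sdc4, the syndecan that works beside α5β1 on fibronectin, was at 12.52 ± 0.10 in stress and 12.11 ± 0.0099 in control (SD, n = 3; 0.41 ± 0.061, SE, limma adjusted p = 0.0769). The galectin gene Lgals3 was at 12.05 ± 0.39 in stress and 11.27 ± 0.072 in control (0.78 ± 0.18, adjusted p = 0.129). In both genes all 3 stress libraries lay above all 3 control libraries.

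Markers of fibroblasts, endothelial cells, neutrophils and skeletal muscle lay mostly to 1 side of 0, but no marker of any cell type passed by limma. Macrophage markers did not lean: 5 of 10 were above 0 and 5 below, with a median difference of 0.016. Of 10 fibroblast markers 9 were below 0, and their summed log2 level ran from 16.04 to 16.54 in stress and from 16.39 to 17.49 in control, where control replicate 1 lay among the stress libraries. That sum is mostly Col1a1, Col1a2 and Col3a1, which also stand in the fibrillar collagen list. In 3 of the 10 markers, Thy1, Fap and Acta2, all stress libraries lay below all control libraries, against 12.3% of all genes. Of 10 endothelial markers 9 were below 0, with summed levels of 13.12 to 13.33 in stress and 13.34 to 13.48 in control, and stress replicate 2 was the lowest library in these markers, in epithelial and in platelet markers. It was also the lowest for Itga2, Itga5, Itga6, Itgb1, Itgb3 and Itgb6. Neutrophil markers were above 0 in 8 of 9, with summed levels of 12.48 to 13.04 in stress and 11.60 to 12.47 in control. Lcn2 (12.07 in stress, 11.24 in control) made up much of that sum. All 12 skeletal muscle markers were below 0, at 11.47 to 12.90 in stress and 12.47 to 14.02 in control. With the muscle mean as a covariate the differences of Itga2, Itga5 and Itgb4 were -0.30, -0.39 and 0.26 (limma adjusted p = 0.561, 0.569 and 0.539). In that fit 4 of the 10 integrin subunits moved by over 1.5 times: Itgb1 to -0.038, Itgb3 to -0.049, Itgb6 to -0.13 and Itga3 to 0.13. So did 8 of the 26 other genes named with a test, all towards 0: Col1a1 (-0.35), Col5a2 (-0.39), Fbn1 (-0.61), Itgae (-0.17), Itga11 (-0.020), Itgb8 (-0.040), Dst (0.052) and Cd151 (0.040). The muscle mean was itself mostly lower in stress (7.39 to 8.65, against 8.27 to 9.61 in control). With so few libraries the fit with it cannot separate muscle content from the group. The part of fibroblast, endothelial and neutrophil markers in the integrin values was not tested. Of 8 platelet markers no more than 3 were tested: Pf4 (8.08 in stress, 8.05 in control), Gp1ba (4.73 in stress, 4.67 in control) and Itga2b. Among the markers too low to be tested, Gp9 and Gp5 stood below 0 on the log2 scale in both groups, at -0.24 and -0.29 in stress and -0.24 and -0.29 in control.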

How the data were processed

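The series holds 6 mRNA and 6 miRNA libraries; only the mRNA table was used here. Per the submitters' processing notes the tools were bcl2fastq and kallisto (version 0.46.1), with mouse build mm10. The mRNA values the authors deposited were taken as log2 values already normalized, although the table is named as raw counts: they are fractional and run from -1.97 to 17.85. The base and transform are not given in the sources used here; base 2 was assumed. Between the lowest and the highest library, genes at a mean level of 2 to 3 typically spanned 0.077 log2 units and genes at 5 to 6 spanned 0.26 (medians).

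Rows at 0 in all libraries (12658) and rows bearing a date in place of a symbol (26) were left out. The 14098 genes with a mean of at least 4 were tested with limma 3.58.1 in R 4.3.3 (variance trend, robust, two-sided, no covariates, Benjamini-Hochberg threshold 0.05), and the fit was tested on simulated data. With 3 libraries against 3, an exact permutation test cannot go below p = 0.1, so none is given for single values. The genes, lists and naming rule (all 10 integrin subunits, any called gene and the 2 smallest p of each list, Fn1, Vtn, Itga2b and the 4 genes most like the leading subunit) were chosen with earlier results of these data known. Of the list symbols, Ccn1 and Ccn2 were read as Cyr61 and Ctgf through RefSeq synonyms. Transcript lengths came from GENCODE M21 and promoters from RefSeq, both on GRCm38, the assembly of mm10. Alternatives were other scalings, no filter, a fit with neither variance trend nor robust estimation, a replicate block, a muscle covariate and leaving out each library; those for pairs of chains, for genes outside the 10 and for the count of separated groups were chosen after seeing the data.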

Additional observations from a re-analysis of the deposited data

How the results depend on the processing

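In every alternative tried 0 of 10 integrin subunits and 0 of the 102 genes of the other lists passed, and Itga2, Itga5, Itgb4, Itgav, Itgb5 and Itgb1 kept their direction. Without control replicate 2 Itgb1 did so in sign only, at -2.3e-05. Leaving out single libraries, the difference ran from -0.33 to -0.19 for Itga2, from -0.42 to -0.18 for Itga5 and from 0.18 to 0.28 for Itgb4. In 8 of the 10 subunits (all but Itga2 and Itgb4) and 11 of the 26 other genes named with a test, leaving out some library moved the difference by over 1.5 times: Itgb5 was 0.018 without stress replicate 1, Fermt1 -0.18 without stress replicate 2, Cd151 0.049 and Itgb8 -0.039 without stress replicate 3, Itga11 -0.31 without control replicate 1, Itga2b 0.046 and Fbn1 -0.64 without control replicate 2, and Fn1 0.11 without control replicate 3. Quantile normalization did so in 6 subunits and 3 other genes. The differences of Itgav (0.029), Itgb5 (0.033), Itgb3 (-0.039), Itga6 (-0.064) and Itgb1 (-0.13) became lower, and that of Itgb6 (-0.026) became higher. Small differences changed sign without single libraries, and the cause was not tested: Itgb3 ran from -0.083 to 0.075 (0.075 without stress replicate 2, 0.027 without control replicate 3), Itgb6 from -0.15 to 0.022 (0.022 without stress replicate 2), Itga3 from -0.032 (without stress replicate 1) to 0.13, Itga6 from -0.041 to 0.0024 (0.0024 without stress replicate 2, 0.00086 without control replicate 2) and Col4a2 from -0.14 to 0.0081 (without stress replicate 2). The subunits whose groups did not overlap numbered 2 to 4 without single libraries, and 4 without stress replicate 3 (with Itga5 and Itgb6 added), where 33.9% of all genes did not overlap. Over the 6 such settings 31% to 36.9% of all genes did not overlap. After quantile normalization they were Itga2, Itga5 and Itgb1, against 24% of all genes. The class means shifted by -0.082 to 0.014 (fibronectin and vitronectin) and -0.051 to 0.034 (laminin and collagen) without single libraries. Over all genes, 3 higher and 2 lower calls became 1 and 1 with neither variance trend nor robust estimation, 0 and 0 with a muscle covariate, and 5 lower after quantile normalization. Without single libraries they ran from 0 to 4 higher and 0 to 2 lower, with 0 in both directions without stress replicate 1 or 3 or control replicate 1 or 3, and 1 lower without control replicate 2. With replicate number as a block 0 were called higher and 0 lower. The labels do not say what a replicate number marks. Same-numbered libraries deviated with correlations of -0.079, 0.082 and -0.018, and differently numbered ones with -0.14 to 0.16. With so few libraries these values cannot decide whether the numbers pair the libraries.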
